A study of Mus musculus with 4 samples.

Results

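Cytosolic ribosomal protein genes encode the proteins of the large (60S-type) and small (40S-type) subunits of the ribosome that translates nuclear messenger RNAs. They were taken by name from the deposited table: protein-coding genes whose symbol begins with Rpl, Rps or Rplp and a number, plus Rpsa, without S6 kinase genes and without symbols that mark a pseudogene. This gave 87 of the 47643 genes in the table. Of these, 46 encode large-subunit proteins and 31 small-subunit proteins, 9 are paralogues or copies of such genes, and 1, Rps19bp1, encodes a protein that binds ribosomal protein S19 and is not part of a subunit. Called detected at 10 or more reads in 2 or more libraries, 86 of the 87 qualified, and the exception was Rpl10l.

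The libraries came from cells freed from the periosteum of mouse femoral shafts, 2 from TdTomato+ cells (called positive) and 2 from TdTomato- cells (called negative). Every mouse was Sox9CreErt2:TdTomato, with 1 tamoxifen-inducible Cre allele at the Sox9 locus and 1 TdTomato reporter allele at ROSA26, and positive and negative cells came from the same injected animals. Tamoxifen was injected 3 times at 48 h intervals (100 µL of 20 mg/mL), and unbroken femora were taken 2 weeks after the last dose. TdTomato marks cells that expressed the Sox9-driven Cre under tamoxifen and their descendants, so it does not report Sox9 at harvest. About 10000 cells of each kind were sorted from 18 femora of 9 mice in 2 collections, the mice being pooled, so a p-value measures the spread between libraries and not between mice. Mouse age is not stated in the labels.

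The table holds group means, not libraries, but its columns fix the 4 library values of each gene. They are given as RPKM, reads per kilobase scaled to depth, where the kilobases are those of the whole genomic span of the gene with its introns. The depth implied was 32.0 and 41.6 M reads in positive and 17.0 and 74.0 M reads in negative libraries, which are named and listed by it. Which value of a pair belongs to which library was settled by whole reads for 55.9% of detected genes but for only 3 of the 86 detected members. Of the negative genes settled with at least 1000 reads in both libraries, 354 of 355 had the same order, and members not settled were given it. The positive pair had no such rule, so where 2 pairs of positive values appear, the first is the assignment that brings the libraries closer and the second is the other. The log2 fold is the deposited difference of mean logarithms, positive over negative, and does not depend on the assignment. It includes an offset of 0.1 RPKM and a further division by depth, so a gene without reads has a log2 fold of -0.04.

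Each ribosome holds close to 1 copy of most of these proteins, so their messenger RNAs are among the most abundant of a growing cell and are made in near-balanced amounts. Most of these messenger RNAs begin with a cytosine followed by a run of pyrimidines, the 5′ terminal oligopyrimidine (TOP) motif, through which their translation follows nutrient and growth signals. In cartilage and bone, cells that secrete much matrix carry many ribosomes, and mutations in ribosomal protein genes are known in humans for anaemia with skeletal malformations.

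The start of the transcript is where the TOP motif lies, so 30 bases around the annotated start (15 before it and 15 from it on) are shown for 4 genes that have a run and 1 that does not, with the run in capitals. They are from RefSeq, build GRCm38.p6. Rpl7a lies at chr2:26910792-26910821 (plus strand), Rpl27a at chr7:109519180-109519209 (plus), Rps18 at chr17:33955651-33955680 (minus), Rps6 at chr4:86857353-86857382 (minus) and Rpl41 at chr10:128549154-128549183 (minus).
Rpl7a: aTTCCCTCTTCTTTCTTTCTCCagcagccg
Rpl27a: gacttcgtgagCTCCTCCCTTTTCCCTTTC
Rps18: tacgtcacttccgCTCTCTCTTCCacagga
Rps6: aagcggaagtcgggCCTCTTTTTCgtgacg
Rpl41: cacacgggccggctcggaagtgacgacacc
A run of at least 7 C or T bases with at least 1 C, read on the gene's strand and touching the 10 bases on either side of the start, was found in 34 of the 66 members with a RefSeq promoter (51.5%), against 22.3% of the 27025 genes in that collection. It was present in 19 of 34 large-subunit genes, 12 of 23 small-subunit genes and 3 of 8 paralogues. Members with the run had a median log2 fold of 0.99 and the 32 members without it 0.88. A match describes the letters at the annotated start, and starts used in these cells may lie elsewhere.

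As a group, ribosomal protein genes stood at about a doubled level in positive cells, but no single member passed the test. All 77 subunit genes had a log2 fold above 0, between 0.55 for Rpl4 and 1.31 for Rpl37a, with a median of 0.96 and a standard deviation over genes of 0.17. Among the 14242 protein-coding genes with reads, 49.4% had a log2 fold above 0, the median was -0.01 and the standard deviation 1.02. Over all 87 members, 85 were above 0, and the exceptions were Rpl3l and the unread Rpl10l.

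In the authors' deposited table, 0 of 87 members had an FDR below 0.05, the share over the table being 0.0063% (3 of 47643 genes). Likewise 0 members had an unadjusted p below 0.05, against 0.598% of genes higher and 0.296% lower in positive cells. These shares include genes without reads. Among the 14242 protein-coding genes with reads, 304 had an unadjusted p below 0.05. The members' deposited p ran from 0.230 to 0.977. Limma on log2(RPKM + 1) over 17166 genes called 0 members and 0% of genes after adjustment, and its lowest adjusted p for a member was 0.611. At an unadjusted p below 0.05 limma had 38 of 86 members higher, against 4.95% of genes, and 0 lower, against 3.14%. That count rests on the closer assignment of the positive values, which narrows the spread, and it was 0 without the 32.0 M-read positive library, 1 without the 41.6 M-read positive library and 7 without the 17.0 M-read negative library, while it was 40 without the 74.0 M-read negative library. In each of these fits 1 group holds a single library, assumed to vary like the other group, so such counts say little about stability.

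**Figure D1:**
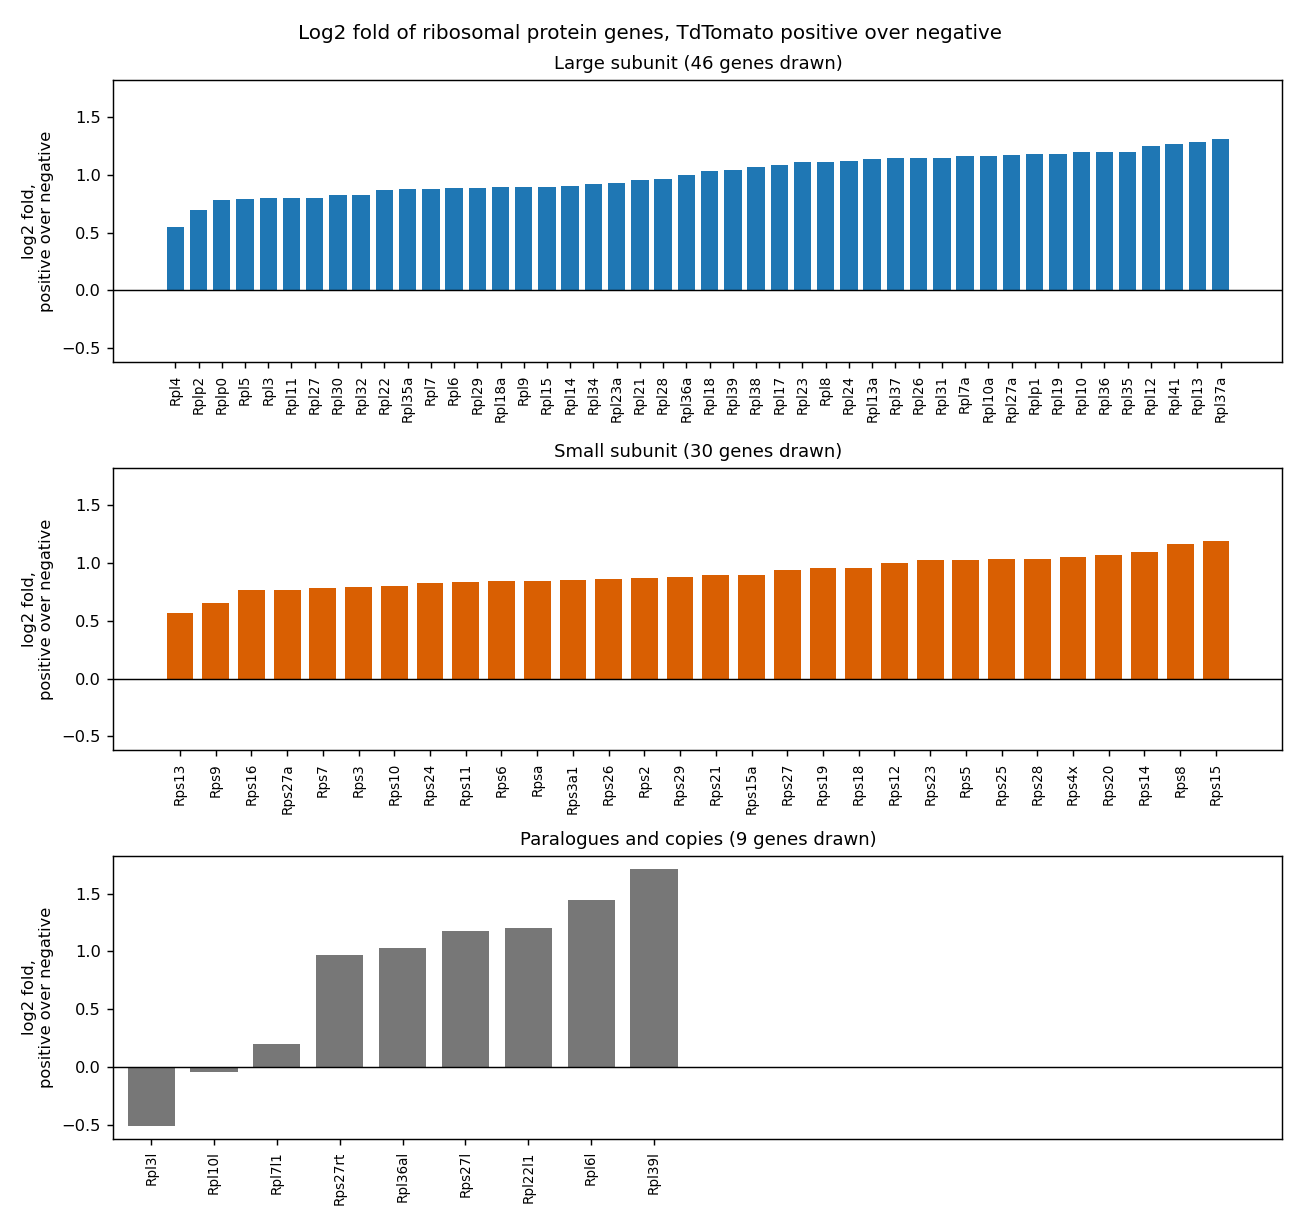
Log2 fold (y axis, positive over negative) of large-subunit genes, small-subunit genes and paralogues (x axis), 1 bar per gene, from the deposited difference of mean logarithms. Every subunit gene drawn lies between 0.55 and 1.31, and the paralogues spread from -0.51 to 1.71.

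By library, the members' median was 65.8 and 65.1 RPKM in positive libraries (49.96 and 85.7 with the other assignment), against 27.7 and 35.1 RPKM in negative ones. Under either assignment of the positive values, 75 of 87 members had their lower positive value above their higher negative one, against 18.8% of protein-coding genes with reads. The reverse, both positive values below, held for 0 members, against 17.2%. These counts take the negative order from the settled genes. If the negative values of the members were assigned the other way, the median would be 8.51 and 120 RPKM there, and Rps21 and Rps19bp1, 2 of the 4 detected members with settled negative values, would keep both positive values above. The share of protein-coding genes with reads that does so is 14.6%, but 55.9% of detected genes are settled in both groups, so that share cannot be set against the members'. Settled genes also enter the 18.8% and 17.2% with a single positive assignment, so those shares are not strictly like the members' either. Taken for all unsettled genes at once, that other order would need 240% of the reads the 74.0 M-read negative library has. It therefore cannot hold for all unsettled genes together. The other positive assignment would need 108% of the reads of the 41.6 M-read positive library. Depth was inferred and the counting of shared reads is not stated, so this slight excess does not decide the positive assignment.

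**Figure D2:**
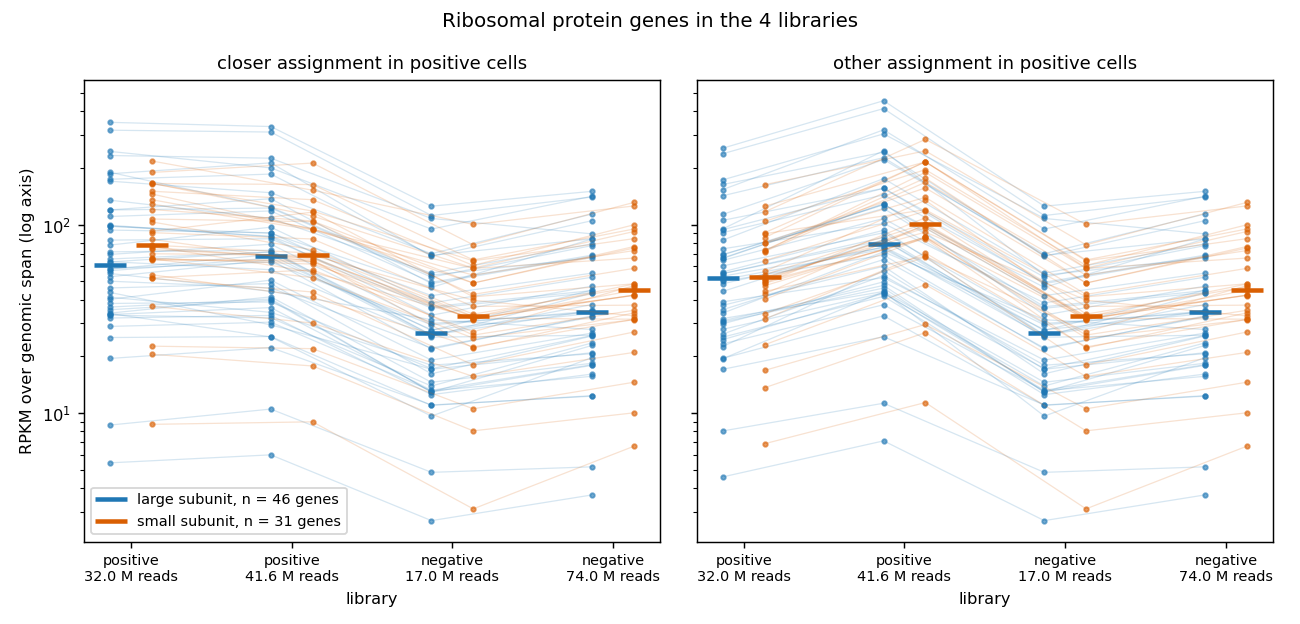
RPKM over the genomic span (log axis) of the 46 large-subunit and 31 small-subunit genes in the 4 libraries, with lines joining a gene and wide marks for medians; the panels differ in how the positive values are assigned. With the closer assignment the large-subunit medians are 61.0 and 67.9 RPKM in positive and 26.7 and 34.5 RPKM in negative libraries.

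Reads in members made up 2.16% and 1.98% of the depth of the positive libraries (1.52% and 2.81% with the other assignment), against 0.882% and 1.21% of the negative ones. The means were 2.07% ± 0.127 in positive and 1.05% ± 0.234 in negative cells (SD, n = 2 each). The groups did not overlap, and the exact two-sided permutation test over the 4 libraries gave p = 0.333, the smallest this design allows. As a share of reads in protein-coding genes outside the mitochondrial genome, members took 2.64% and 3.43% in positive cells and 1.43% and 1.504% in negative cells. With the other assignment of the negative values the shares of depth there were 0.280% and 3.84%, on either side of both positive values (exact permutation p = 1.00).

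Markers of several cell types differed in level between the sorted groups, and in bulk RNA fewer cells of a type and less RNA per cell cannot be told apart. All 14 pan-leukocyte, 16 neutrophil, 12 B cell and 8 measured erythroid markers had a log2 fold below 0. Their list medians were -1.46, -1.36, -1.42 and -1.29. With the negative order taken, both positive values lay below both negative ones, under either positive assignment, in 5, 7, 5 and 2 of them. The share of protein-coding genes with reads was 17.2%. The ratio of group means was above 1 for Elane (1.62), Prtn3 (1.37), Ctsg (1.34) and Fcnb (1.13), and below 1 for the other neutrophil markers. Erythroid markers, mostly globins, summed to 28855 and 10749 RPKM (8244 and 37585 with the other assignment) in positive libraries against 37745 and 37353 RPKM in negative ones, and overlapped with the other assignment only. Neutrophil markers summed to 9393 and 8695 RPKM (3688 and 16123) in positive libraries against 11507 and 27525 RPKM in negative ones. Pan-leukocyte markers summed to 333 and 130.1 RPKM (85.0 and 453) against 309 and 657 RPKM, and B cell markers to 75.1 and 53.6 RPKM (23.2 and 121) against 91.5 and 311 RPKM. Chondrocyte and osteoblast markers ran the other way in 15 of 16 and 13 of 13 genes, with medians of 3.60 and 3.75. Chondrocyte markers summed to 1199 and 241 RPKM (1117 and 346) in positive libraries against 50.6 and 0.340 RPKM in negative ones. Mia had 0 reads in both negative libraries, and Acan and Matn3 had 0 in the 74.0 M-read one. Matn1 also had 0 reads in both negative libraries, but it was barely read in positive ones, at 0.0198 and 0 RPKM. Its log2 fold of 0.09, counted among the 15 above 0, therefore says little. The same holds for Sox5 (0.03) and, among osteoblast markers, Phex (0.13), both below the offset of 0.1 RPKM in every library. Both positive values lay above both negative ones, under either positive assignment, in 13 of 16 chondrocyte and 8 of 13 osteoblast markers. The share of protein-coding genes with reads was 18.8%. Osteoblast markers summed to 5575 and 1990 RPKM (1585 and 7186) against 542 and 29.2 RPKM, with Dmp1 at 0 in the 74.0 M-read negative library. All 10 proliferation genes had a log2 fold below 0, with a median of -1.60, and summed to 66.8 and 39.8 RPKM (18.9 and 102) against 44.1 and 151 RPKM. Muscle markers summed to 180 and 114 RPKM (89.1 and 233) in positive libraries against 239 and 1.29 RPKM in negative ones. Myh1, Myod1 and Pax7 were at 0 in the last. Of the 10 muscle markers, 8 had a log2 fold above 0, with a list median of 1.04, but only 1 had both positive values above both negative ones. Acta1 had a log2 fold of 3.01 but a ratio of group means of 0.54, with 202 and 0.725 RPKM in negative libraries. The part of these differences in the ribosomal protein result was not tested.

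Large- and small-subunit genes differed little. The median log2 fold was 1.02 over 46 large-subunit genes (standard deviation over genes 0.18) and 0.90 over 31 small-subunit genes (0.15), a difference of 0.12. Within a library, the large minus small difference of median log2 RPKM varied between libraries of the same group. Its standard deviation, pooled over both groups, was 0.17 with the closer positive assignment and the negative order taken. The contrast in log2 fold was smaller than that spread. It was -0.01 without the 41.6 M-read positive library and 0.28 without the 32.0 M-read positive library. Both positive libraries exceeded both negative ones, under either positive assignment, in 43 of 46 large-subunit and 26 of 31 small-subunit genes. The share of protein-coding genes with reads, more of them settled, was 18.8%.

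Within the positive pair, the order of the libraries depended on the assignment. With the one in which the scaled signal is higher in the 32.0 M-read library, that library was the higher one in RPKM for 18 of 46 large-subunit genes and 26 of 31 small-subunit genes, with median log2 ratios to the other library of -0.04 and 0.20. With the opposite assignment it was lower for all 46 and all 31, with medians of -0.72 and -0.96. In negative cells the 17.0 M-read library was the lower one for 44 of 46 and 29 of 31 genes, with medians of -0.45 and -0.46.

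The large-subunit genes with the highest log2 fold were Rpl37a, Rpl13, Rpl41 and Rpl12. Rpl37a, a zinc-binding protein (chromosome 1, 72711260 to 72713809, mm10), stood at 189.6 and 124 RPKM in positive libraries (95.03 and 247), against 54.0 and 66.7 RPKM in negative ones. All 4 positive values lay above both negative ones, with a log2 fold of 1.31 and a deposited p of 0.390. Rpl13 (chromosome 8, 123102350 to 123105244) stood at 317 and 310.1 RPKM (238 and 413) against 112 and 140.2 RPKM, with a log2 fold of 1.28. Rpl41, the shortest of the ribosomal proteins and almost wholly basic, stood at 349 and 332 RPKM (255 and 455) against 125 and 150.3 RPKM, with a log2 fold of 1.27. Rpl12, a protein at the base of the stalk, stood at 35.4 and 39.7 RPKM (30.5 and 46.1) against 12.9 and 17.9 RPKM, with a log2 fold of 1.25. In each of these genes the lowest positive value was above the highest negative one.

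The subunit genes with the smallest log2 fold were Rpl4, Rps13, Rps9 and Rplp2. Rpl4, a protein that lines the exit tunnel (chromosome 9, 64173387 to 64178562), stood at 97.96 and 90.03 RPKM in positive libraries (69.1 and 128), against 46.5 and 84.0 RPKM in negative ones. Its groups overlapped under the other positive assignment, and its log2 fold was 0.55. Rps13 stood at 52.3 and 57.6 RPKM (44.2 and 68.1) against 27.0 and 47.5 RPKM, with a log2 fold of 0.57 and the same overlap. Rps9, which lies near the entry of the messenger RNA channel, stood at 218 and 152 RPKM (117 and 284) against 100.3 and 126 RPKM, with a log2 fold of 0.66, and also overlapped. In all 3 the 74.0 M-read negative library was the higher negative one.

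The stalk proteins recruit the elongation factors to the ribosome. Rplp0, which anchors the stalk, stood at 170.1 and 148 RPKM in positive libraries (113 and 222), against 70.1 and 114 RPKM in negative ones, with a log2 fold of 0.79. Its other positive assignment reached just into the negative range. Rplp1 stood at 233 and 225 RPKM (173 and 303) against 108 and 89.4 RPKM, with a log2 fold of 1.18. Rplp2, its dimer partner, stood at 55.1 and 44.3 RPKM (34.0 and 71.7) against 31.3 and 27.8 RPKM, with a log2 fold of 0.70. Rplp1 and Rplp2 thus had log2 folds near the upper and the lower end of the large-subunit genes, and both had the 17.0 M-read negative library as the higher negative one.

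Among small-subunit genes with known roles outside the subunit, Rps6, the protein phosphorylated by S6 kinase, stood at 166 and 111 RPKM in positive libraries (85.4 and 216), against 58.9 and 92.0 RPKM in negative ones. Its log2 fold was 0.84, and the other positive assignment overlapped the negative range. Rpsa, which also serves as a laminin receptor at the cell surface, stood at 120.3 and 105 RPKM (80.3 and 157) against 49.0 and 75.1 RPKM, with a log2 fold of 0.84 and no overlap. Rps27a, made as a fusion with ubiquitin, stood at 129 and 93.8 RPKM (72.0 and 168) against 54.0 and 72.9 RPKM, with a log2 fold of 0.77 and an overlap by less than 1 RPKM.

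Rps21, a short protein of the small subunit, was the 1 subunit gene with settled negative values, and its groups stayed apart under either positive assignment. It stood at 70.1 and 68.7 RPKM in positive libraries (52.7 and 91.3), against 39.7 and 32.8 RPKM in negative ones. Its log2 fold was 0.90 and its deposited p 0.556. Rps19bp1 stood at 4.52 and 2.73 RPKM in positive libraries against 1.93 and 1.96 RPKM in negative ones, all settled, with a log2 fold of 0.78 and a deposited p of 0.590.

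Levels between genes were compared per kilobase of an annotated transcript (GENCODE M21) in place of the genomic span. The large-subunit median was 269 RPKM per transcript in positive and 135 in negative cells, and the small-subunit median 318 and 163. By their mean in positive cells, the highest large-subunit levels were those of Rpl13 (1177 and 1151 RPKM per transcript in positive libraries, 415 and 520.3 in negative ones), Rpl32 (846 and 677, against 347 and 496), Rpl41 (765 and 727, against 275 and 329) and Rpl37a (866 and 566, against 247 and 305). By the same mean, the highest small-subunit levels were those of Rps9 (842 and 589, against 388 and 486), Rps27 (619.8 and 695, against 256 and 429.8), Rps14 (699 and 497, against 227 and 316) and Rps3a1 (661 and 465, against 239 and 373). In positive cells Rpl13 stood clear of the next genes with the closer assignment, while Rpl32, Rpl41, Rpl37a and Rps9 overlapped one another. In negative cells the ranges of Rpl13, Rps9 and Rpl32 overlapped. The order of the 77 subunit genes was much alike in both groups (Spearman's rho 0.97 across genes), and level was weakly related to log2 fold (0.11 across genes). Longer genomic spans went with somewhat lower log2 folds (-0.30 across genes). Genes share libraries and depth and are not independent, so these are descriptions. Rps20 and Rps15a, with the lowest per-transcript levels, had annotated transcripts of 3706 and 5130 bases, which lowers that value.

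Paralogues can stand in for a subunit protein in some tissues, and several exist as young copies whose reads are hard to keep apart. The coding starts show how far they can be told apart, so the first 60 coding bases (GENCODE M21, build GRCm38) are given for Rps27 and Rpl36a with their paralogues, with the bases that differ from the first gene of each set in capitals. The coding region runs from 90212728 to 90213615 on chromosome 3 for Rps27, from 114982456 to 114982707 on chromosome 9 for Rps27rt and from 66946175 to 66949354 on chromosome 9 for Rps27l. It runs from 134585717 to 134587954 on chromosome X for Rpl36a and from 69182819 to 69183136 on chromosome 12 for Rpl36al.
Rps27: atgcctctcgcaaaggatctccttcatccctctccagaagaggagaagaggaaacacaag
Rps27rt: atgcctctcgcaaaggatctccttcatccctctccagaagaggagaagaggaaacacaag
Rps27l: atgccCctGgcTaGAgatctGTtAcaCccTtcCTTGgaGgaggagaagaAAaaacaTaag
Rpl36a: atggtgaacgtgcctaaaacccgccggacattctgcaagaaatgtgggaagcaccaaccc
Rpl36al: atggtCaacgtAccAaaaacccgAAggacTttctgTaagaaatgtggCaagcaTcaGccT
Rps27rt was identical to Rps27 over all 252 coding bases, so reads from the coding region cannot assign a level to either and the values of both are uncertain. Coding identity was 87.7% for Rpl36al, 85.0% for Rpl39l, 84.7% for Rpl10l, 76.2% for Rps27l, 74.1% for Rpl3l, 70.2% for Rpl22l1 and 56.0% for Rpl7l1, each with its partner. The table also lists 270 rows named as pseudogenes of members, of 60 parent genes, and their reads came to 2.51% of the members' reads. How the counting shared reads among such copies is not stated in the labels or headers.

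The paralogues spread more than the subunit genes, with log2 folds from -0.51 to 1.71 and a median of 1.03 over 9 genes. Their reads are given per 100 reads of the partner in the same library, which needs no scaling between libraries. Both genes of a pair were assigned alike unless the paralogue was settled, as Rpl3l and Rpl39l were. Assigning both the other way nearly exchanged the values of the positive libraries, as for Rpl7l1 to Rpl7 (18.1 and 17.7 in place of 17.6 and 18.2), and a mixed assignment was not tested. The exception was Rpl39l, which had 10.4 and 1.06 reads per 100 of Rpl39 in positive libraries with Rpl39 assigned the other way. Rpl3l, which replaces Rpl3 in heart and skeletal muscle, had 0.383 and 0.512 reads per 100 of Rpl3 in positive libraries, against 2.19 and 0.672 in negative ones. It rested on 57 and 96 reads in positive and 73 and 165 in negative libraries, and its share was highest in the 17.0 M-read negative library, where the summed muscle markers were also highest; their part in it was not tested. Rpl7l1, a relative of Rpl7, had 17.6 and 18.2 reads per 100 of Rpl7 against 39.1 and 21.04, and its log2 fold of 0.20 was below that of Rpl7 at 0.88. For both, with the negative order taken here, the positive libraries lay below both negative ones (exact permutation p = 0.333, adjusted p = 1.00 over the pairs measured). The negative order of Rpl3 itself was not settled. Its other order would put Rpl3 at 5.33 and 61.1 RPKM in negative libraries, in place of 13.9 and 23.6. The Rpl3l ratios with that order were not computed, so their separation depends on the order taken. Without the 17.0 M-read negative library the log2 difference was -0.60 in place of -1.45 for Rpl3l and -0.23 in place of -0.68 for Rpl7l1.

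For the other pairs the groups overlapped. Rpl22l1, a paralogue of Rpl22 known from blood cell development, had 129 and 88.3 reads per 100 of Rpl22 in positive libraries, against 71.3 and 102 in negative ones. Rpl36al had 185 and 187 reads per 100 of Rpl36a against 175 and 191, the most even ratio of all pairs, with log2 folds of 1.03 for Rpl36al and 1.00 for Rpl36a. Rps27l, known as a target of p53, had 42.4 and 40.3 reads per 100 of Rps27 against 42.4 and 29.0. Rps27rt had 12.3 and 9.50 reads per 100 of Rps27 against 10.7 and 10.6. The difference between groups had an exact permutation p between 0.333 and 1.00 for the pairs measured, adjusted p = 1.00 throughout. The exact permutation test of 2 against 2 libraries cannot go below p = 0.333, so these values do not show that the ratios were alike.

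**Figure D3:**
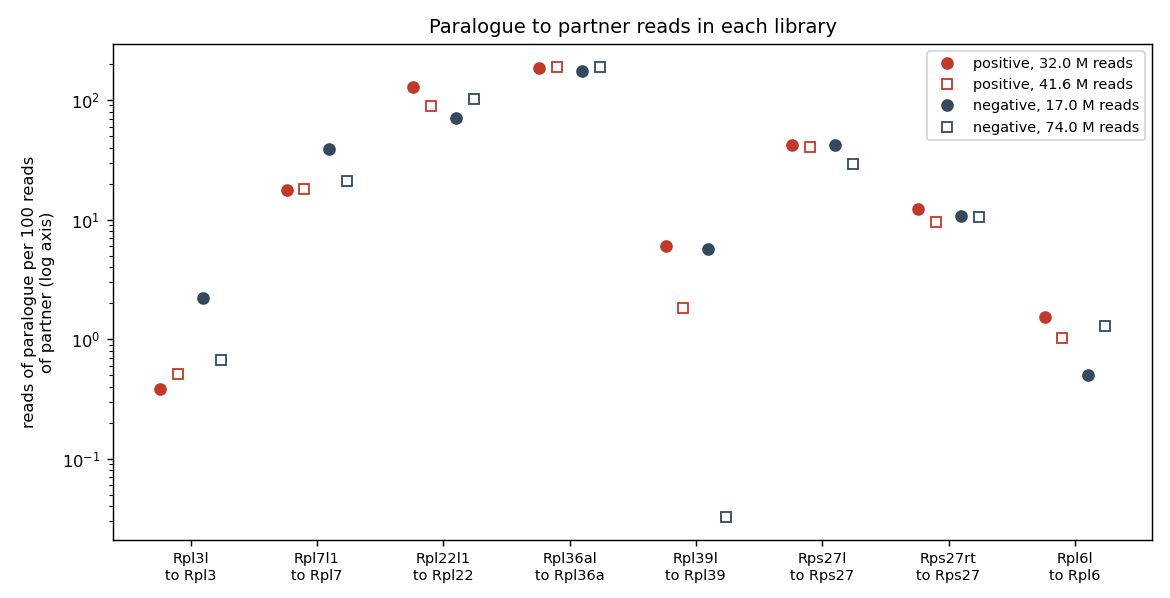
Reads of each paralogue per 100 reads of its partner (log axis) in the 4 libraries, positive in red and negative in dark blue, the shallower library of each group filled. Rpl36al to Rpl36a ranges only from 175 to 191, while Rpl39l to Rpl39 ranges from 0.0325 in the 74.0 M-read negative library to 5.98 in the 32.0 M-read positive library.

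The rarest paralogues carried little information. Rpl39l, a copy of Rpl39 best known from testis, had 186 and 56 reads in positive libraries against 27 and 1 in negative ones. The single read has a 95% Poisson interval of 0.0253 to 5.57 reads, which covers counting error only, and the log2 fold of 1.71 depends on the offset. The 41.6 M-read positive library, at 0.287 RPKM, lay below the 17.0 M-read negative library, at 0.339 RPKM. Rpl6l, which GENCODE M21 lists as a processed pseudogene and the deposited table as protein-coding, had 1.55 and 1.02 reads per 100 of Rpl6 in positive libraries against 0.504 and 1.30 in negative ones, on 12 reads in the 17.0 M-read negative library. Rpl10l, a copy of Rpl10 needed in the male germ line, had 0 reads in every library, where 3 reads would be 0.0918 and 0.0705 RPKM in positive and 0.173 and 0.0396 RPKM in negative libraries. Rps4l and Rpl37rt were not analysed here.

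Other lists of the translation machinery had lower medians than either subunit. Fau, whose product carries a small-subunit protein, had a log2 fold of 0.75, and Gnb2l1, a scaffold bound to the small subunit, 0.73. All 6 elongation factor genes were above 0, with a median of 0.69. Eef1a1, which delivers aminoacyl-tRNA, had a log2 fold of 0.57, Eef2, which moves the ribosome along, 0.50, and Eif5a 0.07. Proteins of the mitochondrial ribosome were above 0 in 71 of 77 genes, with a median of 0.62. Ribosome biogenesis genes were above 0 in 23 of 32 (median 0.37) and initiation factors in 17 of 28 (median 0.18). Genes that control the translation of TOP messenger RNAs, listed together with the transcription factor Myc, were above 0 in 3 of 8, with a median of -0.06. None of these genes had a deposited FDR below 0.05 or a deposited p below 0.05.

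**Figure D4:**
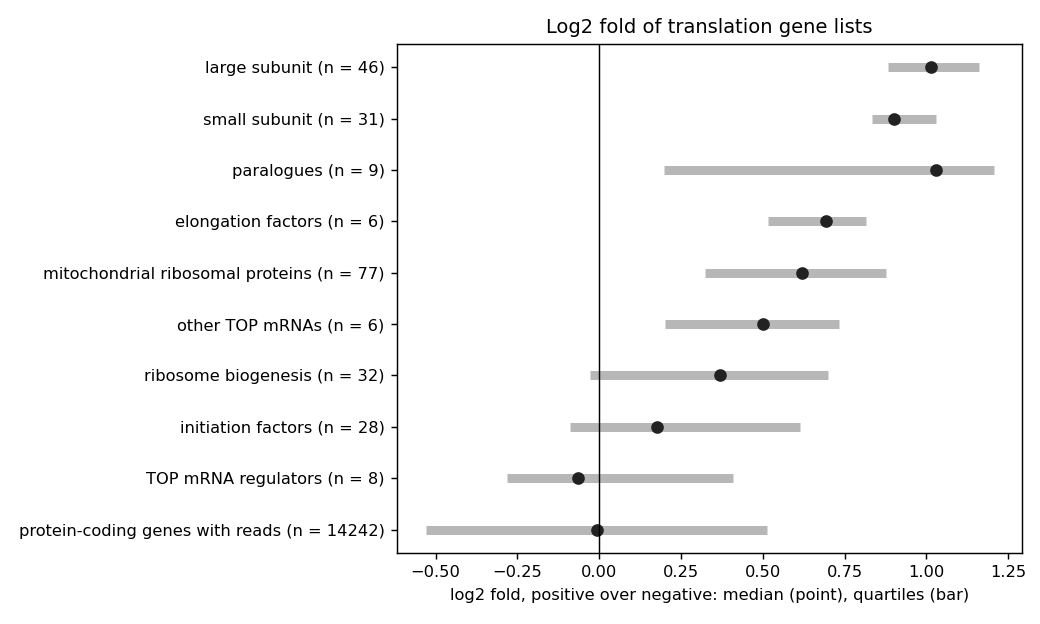
Median log2 fold (points, positive over negative) and the range from the first to the last quartile of genes (bars) for the ribosomal protein groups, other translation lists and all 14242 protein-coding genes with reads. Medians run from 1.03 for the paralogues to -0.06 for the TOP regulators, with all genes at -0.01.

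Non-ribosomal messenger RNAs with a TOP motif did not share 1 value. Tpt1, a growth-related protein, stood at 185 and 213 RPKM in positive libraries (164 and 241), against 89.8 and 94.0 RPKM in negative ones, with a log2 fold of 1.07. Pabpc1, which binds poly(A) tails, stood at 19.4 and 23.1 RPKM (17.7 and 25.3) against 15.4 and 31.0 RPKM, with a log2 fold of -0.09. The median over 6 such genes was 0.50, and 5 of the 6 were above 0. Of the regulators, Myc, a transcription factor that drives ribosome production, stood at 53.8 and 41.1 RPKM (31.5 and 70.1) against 32.0 and 12.7 RPKM, with a log2 fold of 1.18 and a deposited p of 0.428. Its other positive assignment overlapped the negative values.

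The genes whose 4 values most resembled the members' were sought among 222 protein-coding genes with settled values and a mean level of at least 11.6 RPKM, by the root mean squared distance of centred log2 values over 4 libraries. The closest were Chchd1 (0.09), Cuta (0.11), Mrpl34 (0.13), Tmem261 (0.14) and 2310039H08Rik (0.14). Chchd1 stood at 21.8 and 25.3 RPKM in positive libraries against 10.04 and 11.97 RPKM in negative ones, and Mrpl34 at 26.2 and 29.5 RPKM against 13.4 and 18.3 RPKM. All 5 had log2 folds between 0.78 and 1.23, and their positive values lay above their negative ones. Both follow from choosing genes by likeness to the members, so they are no separate result. The members' own values used the assigned orders, with 83 members unsettled in positive and 82 in negative cells.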

How the data were processed

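RNA of 4 sorted libraries was compared. The submitters' processing notes name STAR, Partek and mm10, with versions not given in the sources used here. Per the file headers, the authors fitted a lognormal model with shrinkage and deposited group means of a signal, the sum and the highest library value as scores, a natural log difference, a ratio and a signed fold score, and each gene's p-value with its FDR. The deposited table has 0 columns of single samples. Solving for the library values from these group means, highest value and natural log difference gave exactly 1 solution in all 47643 genes. These were taken as RPKM + 0.1 divided once more by depth and span, a scale inferred from the values. Simulated data were built on that same scale, so they tested the solving and could not test the scale. The deposited Akaike criterion, a score not used in the solving, ran from -88.7 to 73.3 over genes. It ran from 24.5 to 25.8 once 2 times the summed natural log of the values was subtracted.

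Pairs were settled where reads were whole within 0.01 plus 1e-07 of the reads, or where the other assignment gave reads below -0.05. Genes needed 10 reads in 2 libraries to count as detected. Genes held 87.3% and 63.3% of the depth of the positive and 70.5% and 83.4% of the negative libraries. Precision is that of 2 libraries a group, and recovered reads carry no counting interval except where given.

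The authors' deposited p and FDR (two-sided, 0.05, whole table) were the main test, and limma 3.58.1 (R 4.3.3) an alternative. Single values were tested by exact permutation over libraries. The planned count test was not used, since the table holds no counts. Genes are named by a rule. It takes both genes of each paralogue pair, the 6 highest and 6 lowest log2 folds and the 4 highest levels of each subunit. It also takes members whose groups stay apart under either assignment of both groups, those with set roles, and the 5 most similar other genes. Most members that stay apart under either positive assignment alone are not described singly. Rps20, Rps15a, Tpt1, Pabpc1, Myc, the elongation factors named and the single cell type markers named were chosen after their values were seen. Members and lists were chosen with earlier results of these data known. GENCODE M21, of the same build, gave transcripts, and 60 of 87 members had the same coordinates there. Some single values are not reported or drawn here.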

Additional observations from a re-analysis of the deposited data

How the results depend on the processing

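No paired analysis was possible because the table's columns carry no collection number. The median log2 fold of members was 0.96. It was 0.74 as the log2 ratio of group means (a gene without reads has -0.39 on that scale) and 0.81 to 1.21 without 1 library. Over the 4 members with settled values, Rpl10l, Rpl3l, Rps19bp1 and Rpl39l, it was 0.37. None of these is a subunit gene, and the deposited log2 fold does not depend on the assignment. That value therefore says nothing about the subunit genes. Scaling by median ratios gave 1.01, with the median of protein-coding genes at 0.03 with and without it, and 85 of 87 members were above 0 then and without any 1 library. The large minus small subunit difference of 0.12 ran from -0.0087 to 0.28 without 1 library, and no value over settled genes could be had, since no subunit gene was settled in both groups. The group difference in the share of depth, 1.02 percentage points, was 0.0085 with the other negative assignment, 1.57 over protein-coding reads, and 0.854 to 1.19 without 1 library. The median paralogue ratio difference of 0.03 (log2) ran from -0.037 to 0.21 without 1 library. Without 1 library the single differences ran from -2.31 to -0.60 for Rpl3l (-1.45 with all) and -1.13 to -0.23 for Rpl7l1 (-0.68 with all), both nearest 0 without the 17.0 M-read negative library, 0.050 to 0.60 for Rpl22l1 (0.33 with all), -0.16 to 0.21 for Rps27rt, -0.035 to 0.090 for Rpl36al, -0.79 to 6.67 for Rpl39l and -0.037 to 0.51 for Rps27l. They turned negative without the 32.0 M-read positive library for Rps27rt, the 17.0 M-read negative library for Rpl36al and the 74.0 M-read negative library for Rpl39l and Rps27l. The cause of these shifts was not tested. The count of members passing was 0 by the deposited p, adjusted or not, and by limma's adjusted p with all libraries or without 1; by limma's unadjusted p below 0.05 it was 38 with all libraries and 0 to 40 without 1.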
